A study of Mus musculus with 3 samples.

Results

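Interferon-stimulated genes are the genes that cells switch on when interferon, a secreted alarm signal of viral infection, binds its receptors. The 39 genes described here were chosen by name from this family, with their levels on these arrays already known from an earlier look at the data, so their difference between the arrays is a description and not a test. Of the 39, 37 had a probe set that names 1 gene, out of 18194 genes measured in all. Isg15 is named only by a probe set that lists several genes, and Ifi44 was not analysed here. Where a gene had several probe sets, the one with the highest mean over the 3 arrays was used.

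The 3 groups were parietal cells, which secrete gastric acid, zymogenic (chief) cells, the source of pepsinogen, and pit cells, the mucous cells at the top of the gastric unit, each as a pool of RNA read on 1 Affymetrix array. Cells were cut from the mouse stomach by laser, 3000 to 5000 per lineage from 4 to 5 mice, parietal cells being picked by the lectin DBA, pit cells by E-cadherin without DBA, and zymogenic cells by E-cadherin without DBA or GSII, and were pooled to 20 ng of RNA, which 1 label calls nuclear and the design text calls total. Parietal and pit cells were taken from the same gastric units, whereas the zymogenic cells came from the unit base on other slides, so for them the slide and the lineage cannot be told apart. The labels give no strain, age, sex or treatment of the mice, and each pool spans several animals and has no replicate, so that no p-value or replicate error can be given.

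Type I and type III interferons signal through receptors that activate the kinases JAK1 and TYK2, which phosphorylate STAT2. With IRF9 it is part of a complex that binds the interferon-stimulated response element in promoters. Interferon gamma instead acts at gamma activated sites. Among the targets is Irf7, itself a transcription factor that drives further interferon production, and many others code for proteins that sense viral RNA, degrade it or block its translation. Epithelia of the gut are known to respond to type III interferon.

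The element core, GAAANNGAAA on either strand (TTTCNNTTTC as read on the other), was looked for in the RefSeq promoter windows of the assembly GRCm38.p6, which run from 250 bases before to 50 bases after each annotated start. The table held 30 of the 39 genes by symbol. It did not list Dhx58, Zbp1, Usp18, Oas2, Mx1, Ifi27l2b, Parp9, Parp14 and Iigp1. Of the 30, 18 (60.0%) held the core in at least 1 window, against 3.99% of the 27025 genes of the table. The 6 promoters printed here hold it and had the largest ratios of the parietal pool to the higher of the others among such genes. Capitals mark the core. For 5 of them the 170 bases before the start are given, and for Ifih1 26 bases around the core, which lies after its start.

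Ifit1bl1 (chr19:34601969-34602138, minus strand): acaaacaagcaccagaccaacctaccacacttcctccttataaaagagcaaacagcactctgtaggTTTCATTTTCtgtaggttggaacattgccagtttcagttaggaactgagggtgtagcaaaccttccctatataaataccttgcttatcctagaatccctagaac
Oas1a (chr5:120907526-120907695, minus strand): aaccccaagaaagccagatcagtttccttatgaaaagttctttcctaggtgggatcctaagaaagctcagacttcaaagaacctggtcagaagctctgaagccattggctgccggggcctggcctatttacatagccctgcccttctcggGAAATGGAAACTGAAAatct
Igtp (chr11:58199386-58199555, plus strand): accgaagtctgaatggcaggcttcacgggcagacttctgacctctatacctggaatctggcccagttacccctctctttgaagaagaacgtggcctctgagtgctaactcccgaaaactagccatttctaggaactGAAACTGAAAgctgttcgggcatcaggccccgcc
Ifit1 (chr19:34640719-34640888, plus strand): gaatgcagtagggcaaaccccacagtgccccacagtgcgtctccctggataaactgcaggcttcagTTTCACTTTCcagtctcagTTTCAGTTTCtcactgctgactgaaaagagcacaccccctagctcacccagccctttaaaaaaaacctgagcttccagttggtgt
Ifih1 (chr2:62646206-62646231, minus strand): agagaatcGAAACAGAAAccgatctg
Ifit3 (chr19:34583359-34583528, plus strand): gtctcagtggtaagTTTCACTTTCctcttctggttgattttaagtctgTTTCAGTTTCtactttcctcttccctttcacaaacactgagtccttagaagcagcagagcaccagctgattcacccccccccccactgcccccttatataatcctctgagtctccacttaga

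Oas1a, Ifit1 and Ifit3 each held 2 copies, and those of Oas1a overlap. Over the 18 genes, 9 had more than 1 copy in a window, 13 had a copy before a start, and 5 had it after the start only. A match is a run of letters in this window and not a shown binding site.

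**Figure D1:**
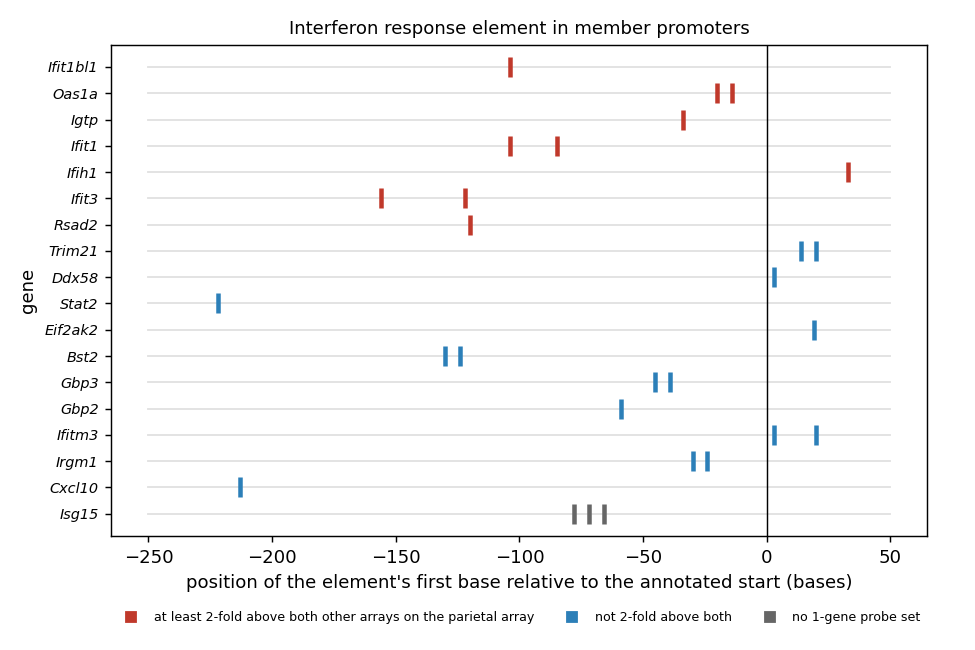
Position of each response element core relative to the annotated start (x axis, in bases, start at 0) for the 18 genes that hold it, ordered by their ratio of the parietal pool to the higher of the others (for genes with several annotated starts, the first). Colours give whether the gene was at least 2-fold above both other pools in the parietal pool, with Isg15, which was not measured, in grey, and cores of both kinds of gene lie before and after the start.

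Values are probe set intensities on a linear scale. A detection floor of 23.3 was taken from 80 probe sets of olfactory and vomeronasal receptors, genes not expected in the stomach. Lower values were set to the floor for folds and ratios, and a fold against such a value is given as at least that fold. In the parietal pool 23 of the 37 genes (62.2%) were above the floor, against 5 (13.5%) in the zymogenic pool and 10 (27.0%) in the pit pool. Of all genes 15.4%, 12.6% and 14.4% were above it on these arrays. Between different probe sets of 1 gene, the log2 ratio of the parietal to the pit pool scattered with an SD of 0.43 over 329 genes, which describes measurement scatter alone.

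Markers of the 3 lineages were read first. Parietal markers summed to 5666 in the parietal, 1262 in the zymogenic and 349 in the pit pool (8 genes). Most of this was the proton pump subunit Atp4b at 4402, 793 and 102, although its partner Atp4a had 214, 261 and 12.5. Kcnq1 was also highest in the zymogenic pool, with 29.1, 60.5 and 3.71. Kcne2, Slc26a7 and Esrrg were under the floor in every pool. Of the 8, 3 were 2-fold above both other pools in the parietal pool. Zymogenic markers summed to 506, 15552 and 61.2 (6 genes) and pit markers to 19506, 57.7 and 13181 (4 genes). Pit markers were thus also high in the parietal pool, and among them the gastrokines Gkn2 and Gkn1 had 7987, 8.28 and 2723, and 10493, 12.5 and 8307, with Gkn2 2.93-fold higher in the parietal than in the pit pool. Tff1 had 601, 22.5 and 926, and the mucin Muc5ac had 425, 14.5 and 1225. The part of pit cell RNA in the parietal values that follow was not tested. In such pools a larger share of expressing cells and more RNA per cell cannot be told apart.

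In the parietal pool 15 of the 37 genes exceeded both other pools by at least 2-fold, and 0 were 2-fold lower than both. Of all 18194 genes 1.7% were 2-fold higher and 0.0879% 2-fold lower in this way, and of the 4138 above the floor in at least 1 pool 7.49% were higher. Of the 37, 10 were at least 4-fold higher than in both others, against 0.264% of all genes, namely Ifit1bl1, Irf7, Oas1a, Igtp, Ifi35, Ifi27l2b, Oasl2, Ifit1, Parp14 and Samd9l. As the genes were chosen with this contrast known, nothing is read from these shares. Just inside the 2-fold line were Ifit3 (at least 2.44-fold) and Rsad2 (at least 2.25-fold). Next came Zbp1 (at least 1.46-fold) and Mx1 (at least 1.42-fold), which were not counted. Their other pools lay under the floor, so these lower bounds do not place them under 2-fold. With the floor at the 90th percentile, Zbp1, Mx1 and Dtx3l were also 2-fold above both, as were 2.72% of all genes.

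**Figure D2:**
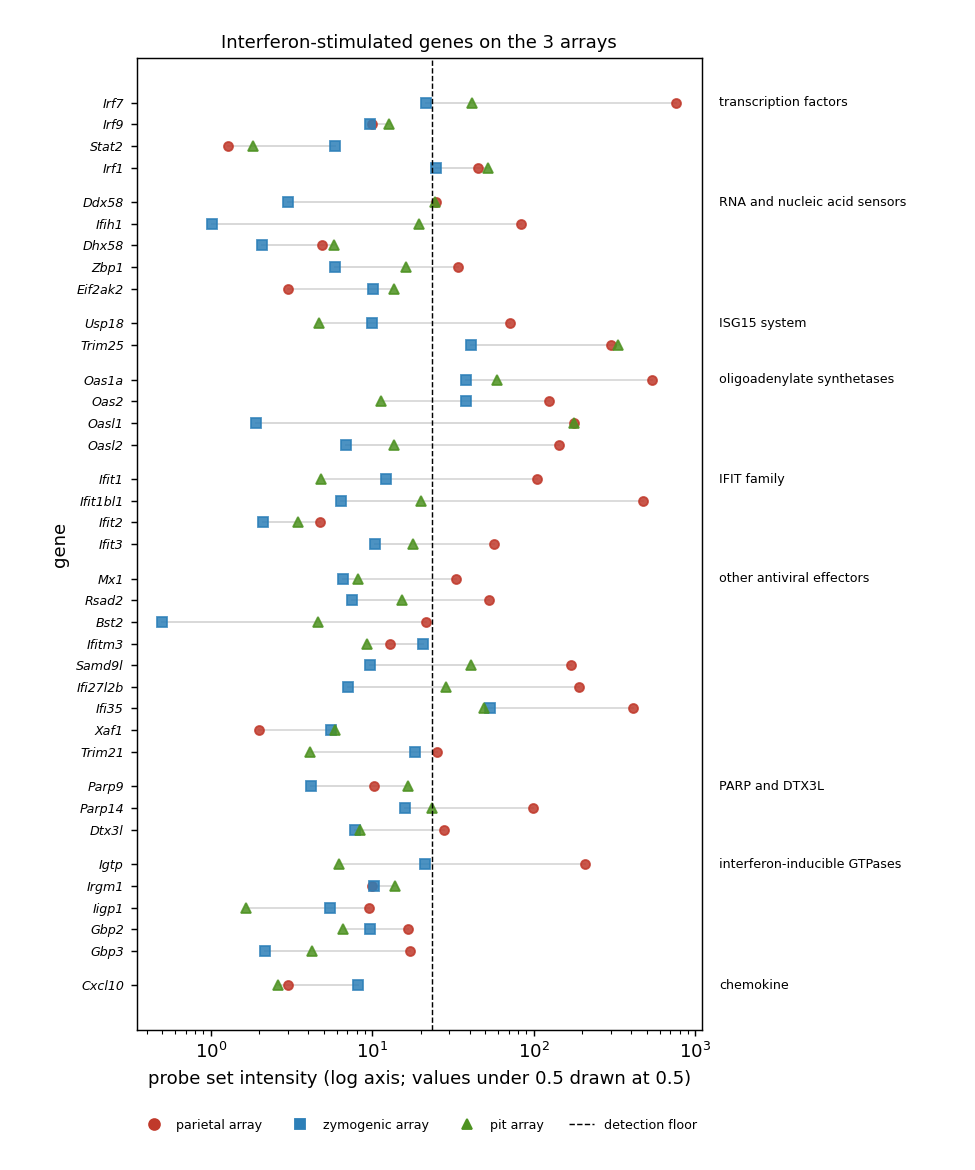
Intensity (x axis, log scale) of each of the 37 measured genes in the parietal, zymogenic and pit pools, grouped by role, with the detection floor of 23.3 as a dashed line. The parietal values of Irf7 (762) and Ifit1bl1 (474) lie far to the right of both others, while Oasl1, Trim25, Irf1 and Ddx58 have their parietal and pit values side by side.

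The transcription factors did not share 1 pattern. Irf7 stood at 762 in the parietal pool, 21.6 in the zymogenic pool and 41.1 in the pit pool. It was thus 18.5-fold higher in the parietal than in the pit pool and at least 32.8-fold higher than in the zymogenic pool. Irf1, a factor best known from the response to interferon gamma, read 44.9 in the parietal, 24.8 in the zymogenic and 52.2 in the pit pool. The parietal and pit values of Irf1 were close, 1.16-fold apart with the pit value higher, and within the scatter between probe sets. Irf9 and Stat2, which belong to the complex that binds the response element, lay under the floor in all 3 pools, at 9.93, 9.72 and 12.7 for Irf9 and at 1.27, 5.91 and 1.81 for Stat2 in the parietal, zymogenic and pit pools.

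Among the sensors, Ifih1 (MDA5), which recognises long double-stranded RNA, had 82.8 in the parietal pool, 1.02 in the zymogenic pool and 19.3 in the pit pool, at least 3.56-fold above both. Ddx58 (RIG-I), which recognises RNA with a 5′ triphosphate, read 24.6 in both the parietal and the pit pool, just over the floor, and 2.99 in the zymogenic pool. Zbp1, a sensor of left-handed nucleic acid, was over the floor in the parietal pool alone, at 33.9 against 5.90 in the zymogenic and 16.2 in the pit pool. Dhx58 (LGP2), a helicase that modulates the other 2 helicases, and Eif2ak2 (PKR), a kinase that halts translation on binding double-stranded RNA, were under the floor in every pool. Of the sensors, Ifih1 alone thus reached 2-fold between the parietal and pit pools with this floor. For Zbp1 the pit value was under the floor, so its fold is a lower bound (at least 1.46). With the floor at the 90th percentile its log2 ratio of parietal minus pit was 1.07.

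Isg15, a ubiquitin-like protein that is attached to other proteins, could not be read, but its partners could. Usp18, the protease that removes ISG15 and damps the type I interferon receptor, had 70.9 in the parietal pool, 9.93 in the zymogenic and 4.70 in the pit pool, at least 3.05-fold above both. Trim25, a ubiquitin ligase that assists RIG-I, had 298 in the parietal, 40.9 in the zymogenic and 334 in the pit pool. It was 7.29-fold higher in the parietal than in the zymogenic pool and 1.12-fold apart between the parietal and pit pools, the pit value being the higher. Its further probe sets gave 53.1, 7.88 and 48.0, and 28.1, 20.1 and 21.5, in the parietal, zymogenic and pit pools, again with the parietal value less than 2-fold above that of the pit pool.

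The oligoadenylate synthetases make the messenger that activates the antiviral nuclease RNase L, and Oasl1, a relative of theirs, is known in mouse to limit translation of the Irf7 transcript. Oas1a stood at 539 in the parietal pool, 37.9 in the zymogenic pool and 59.4 in the pit pool, and so was 14.2-fold higher in the parietal than in the zymogenic pool and 9.07-fold higher than in the pit pool. Oas2 had 124, 37.8 and 11.3 in the parietal, zymogenic and pit pools, 3.29-fold above the zymogenic value and at least 5.35-fold above the pit pool. Oasl2 had 143 in the parietal pool against 6.86 and 13.6 in the zymogenic and pit pools, at least 6.17-fold above both. Oasl1 was unlike these, with 178 in both the parietal and the pit pool and 1.91 in the zymogenic pool. Oasl1 and Oasl2 lie next to each other on chromosome 5 with no protein-coding gene between them. The Oas1 genes are a family of close copies, and a probe set for 1 of them may also bind RNA of another.

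The IFIT proteins bind viral RNA and block its translation. Ifit1bl1, an IFIT1-like gene, read 474 in the parietal pool, 6.43 in the zymogenic pool and 20.1 in the pit pool, at least 20.4-fold above both others. Ifit1 had 105, 12.1 and 4.82 in the parietal, zymogenic and pit pools, at least 4.52-fold above both. Ifit3 had 56.8, 10.4 and 17.8 in them. For these 3 genes only the parietal value exceeded the floor. Ifit2 stayed under it everywhere, at 4.73, 2.11 and 3.48. All 4 lie in 1 cluster on chromosome 19, where Ifit2, Ifit3 and Ifit1bl1 are direct neighbours among protein-coding genes and 2 such genes separate Ifit1bl1 from Ifit1. As close copies, these genes may share signal between their probe sets.

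The remaining antiviral effectors held 4 genes that were 2-fold above both other pools. Ifi35, a protein that binds the factor NMI, had 414 in the parietal pool, 53.8 in the zymogenic pool and 49.4 in the pit pool, so that the parietal value was 7.70-fold above the zymogenic and 8.37-fold above the pit value. Its further probe sets gave 231, 22.0 and 26.6, and 55.3, 5.26 and 9.58, in the parietal, zymogenic and pit pools, both highest in the parietal pool. Ifi27l2b, of a family of small membrane proteins, had 192, 7.05 and 28.5 in the parietal, zymogenic and pit pools. Its probe set is named as one that can bind other transcripts, and the near copy Ifi27l2a read 155, 5.63 and 33.5. Samd9l, which restrains translation, had 169 in the parietal, 9.71 in the zymogenic and 41.0 in the pit pool, 4.12-fold above the pit pool. Rsad2 (viperin), an enzyme that makes an inhibitor of viral polymerases, had 52.4, 7.50 and 15.2, and 1 further probe set over the floor had 30.9, 7.13 and 8.34, at least 1.33-fold above both.

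The other effectors were low. The dynamin-like GTPase Mx1 had 33.0 in the parietal pool against 6.56 and 8.13 in the zymogenic and pit pools, and Trim21, an intracellular antibody receptor, had 25.2 against 18.5 and 4.11. Bst2 (tetherin), which holds budding virions at the membrane, was just under the floor in the parietal pool at 21.4, was listed at 0 in the zymogenic pool and had 4.58 in the pit pool. Ifitm3, which blocks virus entry, and Xaf1, a gene linked to cell death, were under the floor in all 3 pools.

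Parp14, an ADP-ribosyltransferase, had 98.3 in the parietal pool, 15.9 in the zymogenic pool and 23.4 in the pit pool, 4.19-fold above the pit pool. The ubiquitin ligase Dtx3l and its partner Parp9 lie beside it on chromosome 16 with no protein-coding gene between them. Dtx3l had 27.9, 7.84 and 8.35 in the parietal, zymogenic and pit pools, at least 1.20-fold above both. Parp9 was under the floor in every pool, at 10.3, 4.16 and 16.6, and so was given no order.

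Interferon-inducible GTPases act on the vacuoles of intracellular parasites and are classical targets of interferon gamma. Igtp (Irgm3) had 208 in the parietal pool, 21.3 in the zymogenic pool and 6.17 in the pit pool, at least 8.96-fold above both. The other 4, Irgm1, Iigp1, Gbp2 and Gbp3, were under the floor in every pool, with parietal values of 9.99, 9.60, 16.6 and 17.1. Cxcl10, a chemokine that draws T cells, was also under it, at 3.01 in the parietal, 8.19 in the zymogenic and 2.59 in the pit pool. In all, 14 of the 37 genes were under the floor in all 3 pools, between 1.27 (Stat2) and 21.4 (Bst2) in the parietal pool. No order was read from values under this floor, which is that of the zymogenic array. The same percentile was 11.2 on the parietal array, where Bst2, Gbp2, Gbp3 and Ifitm3 exceeded it. On the pit array it was 15.2, which Parp9 exceeded.

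The parietal and pit pools, which share their gastric units, were then compared alone. The same 15 genes were 2-fold or more above the pit pool, against 2.73% of all genes, and 0 were 2-fold lower, against 1.46%. The median log2 ratio over the 37 genes, parietal minus pit, was 0.12, and 0.00 over all genes, since most values lie under the floor on both arrays. Above the floor in both were 10 of the 37. Of these, Irf1, Trim25, Oasl1 and Ddx58 had log2 ratios of -0.22, -0.16, -0.0015 and 0.0041. Samd9l, Parp14, Ifi27l2b, Ifi35, Oas1a and Irf7 had 2.04, 2.07, 2.75, 3.07, 3.18 and 4.21. The first 4 were thus close to equal between the pools and the other 6 were 4-fold or more higher in the parietal pool. With the arrays scaled to their BioB and BioC hybridisation controls, the first 4 became at least 2-fold higher in the parietal pool (log2 ratios of 1.01, 1.07, 1.23 and 1.13). These ratios lie below the general shift under that scaling, a median of 1.46 over genes above the floor in every pool. Of all genes 10.9% were then 2-fold above both other pools. Without that scaling, the median log2 ratio over the 1984 genes above the floor on both arrays was 0.087. Of them 16.1% were at least 2-fold higher in the parietal pool.

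**Figure D3:**
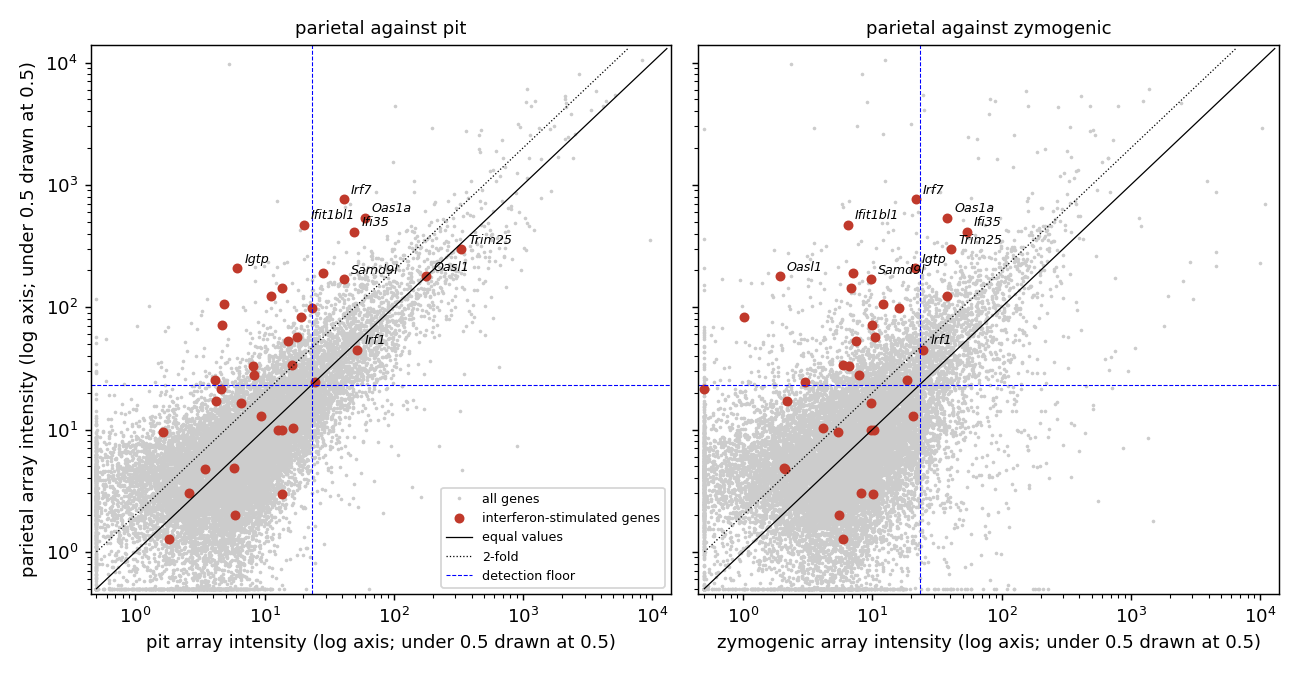
Parietal intensity (y axis, log scale, values under 0.5 drawn at 0.5) against the pit pool (left) and the zymogenic pool (right) for all 18194 genes (grey) and the 37 interferon-stimulated genes (red), with lines for equal values, 2-fold and the floor of 23.3. Against the pit pool, Irf7, Oas1a, Ifit1bl1 and Ifi35 lie far above the 2-fold line while Trim25, Oasl1 and Irf1 lie on the line of equal values, and against the zymogenic pool Trim25 and Oasl1 lie above the 2-fold line too.

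Against the zymogenic pool, 17 of the 37 genes had a parietal value at least 2-fold higher, against 4.74% of all genes, and 0 were 2-fold lower, against 1.74%. These were the 15 genes above with Trim25 and Oasl1. Between the zymogenic and pit pools, 0 genes were 2-fold higher in the zymogenic pool, against 2.35% of all genes, and 3 were 2-fold lower, against 4.24%. The 3 were Irf1 (2.11-fold), Trim25 (8.16-fold) and Oasl1 (at least 7.67-fold lower in the zymogenic pool). Irf7 lay under the floor in the zymogenic pool (21.6) and over it in the pit pool (41.1), and so was at least 1.77-fold lower there. Of the 37, Trim25 and Oasl1 were at least 2-fold lower in the zymogenic pool than in both others, against 2.52% of all genes. Among the 1186 genes over the floor in every pool the parietal pool was brighter in general, with a median log2 ratio of 0.29 for parietal minus pit and 0.64 for parietal minus zymogenic.

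Other genes of the interferon pathway were taken from a list of 102 written by function and not by their values, although with the results above known. Of these, 86 were measured. Of the 86, 27 were above the floor in at least 1 pool, as were 4138 of all 18194 genes. The parietal value exceeded both others by at least 2-fold for 8 and was 2-fold below both for 0, against the 1.7% and 0.0879% of all genes given above. The pit value was 2-fold above both others for 2 and below both for 1, against 1.31% and 0.594% of all genes, and the zymogenic value was above both for 0 and below both for 4, against 1.57% and 2.52% of all genes.

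Of the interferons, 4 genes of types I and II were read, and type III interferons were not analysed here. Ifnb1 (4.95, 7.83 and 3.61 in the parietal, zymogenic and pit pools), Ifna2, Ifna4 and Ifng (3.81, 0.672 and 3.59) lay under the floor in all 3 pools. Il18, a cytokine of epithelia that stimulates interferon gamma release, had 171 in the parietal pool, 0.689 in the zymogenic pool and 221 in the pit pool. Il15 was under the floor.

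Receptor genes were low on all arrays. Ifnar1 and Ifnar2, the type I receptor chains, Ifngr1 of the gamma receptor, and Ifnlr1 of the type III receptor were under the floor everywhere, with Ifnlr1 at 11.3, 5.77 and 20.8 in the parietal, zymogenic and pit pools. Il10rb, the other type III chain, had 20.6 in the parietal, 8.55 in the zymogenic and 28.6 in the pit pool. Ifngr2 had 15.9, 2.99 and 26.1. Both were thus just above the floor in the pit pool alone, and the other 4 receptor genes were given no order.

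Of the 8 measured genes of JAK-STAT signalling and related factors, 0 were 2-fold above or below both other pools in the parietal pool. Of all genes 1.7% were above and 0.0879% below both, so a count of 0 among so few genes says little. The kinase Jak2 had 29.7 in the parietal pool, 8.83 in the zymogenic and 40.7 in the pit pool, and Tyk2 had 25.8, 22.7 and 30.9. Irf3, the factor that starts interferon production, had 77.3, 73.7 and 50.4 in the parietal, zymogenic and pit pools. Stat3 was over the floor in the pit pool alone (28.9, against 11.4 in the parietal and 6.84 in the zymogenic pool). Jak1, Irf2, Irf5 and Irf8 were under the floor in every pool.

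The inhibitors differed among themselves. Samhd1, an enzyme that depletes nucleotides needed by viruses, had 239 in the parietal pool, 23.9 in the zymogenic pool and 53.0 in the pit pool, 4.51-fold above the higher of the others. Its further probe sets over the floor were smaller, at least 1.78-fold, 1.46-fold and 2.09-fold above both others, and the last was under the floor in every pool. Socs3, a feedback inhibitor of cytokine receptors, had 17.6, 5.57 and 88.9, highest in the pit pool by more than 2-fold. Among the genes of sensing upstream of interferon, 0 of 11 measured were 2-fold above or below both other pools in the parietal pool. This too says little beside the 1.7% above and 0.0879% below both of all genes.

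Of 48 further interferon-stimulated genes, 7 had a parietal value at least 2-fold above both others, against 1.7% of all genes. The schlafen gene Slfn2 (117, 18.4 and 3.61 in the parietal, zymogenic and pit pools), Ifi27l2a, the ubiquitin ligase Rnf213 (94.9, 2.86 and 7.01), Parp12 (63.2, 10.1 and 9.08), the helicase Helz2 (75.8, 14.5 and 28.7), Lgals3bp (55.3, 9.76 and 15.0) and the receptor chaperone Rtp4 (54.2, 25.6 and 13.8) were the 7. Other orders were found too. Tor3a, an ATPase of the endoplasmic reticulum, was highest in the pit pool, with 296 there against 99.5 in the parietal and 10.7 in the zymogenic pool. Ifi27 was 2-fold lower in the pit pool than in both others, with 426, 226 and 19.0 in the parietal, zymogenic and pit pools. Ifi30, a lysosomal thiol reductase, was 2-fold lower in the zymogenic pool than in both others, with 319, 34.8 and 197.

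**Figure D4:**
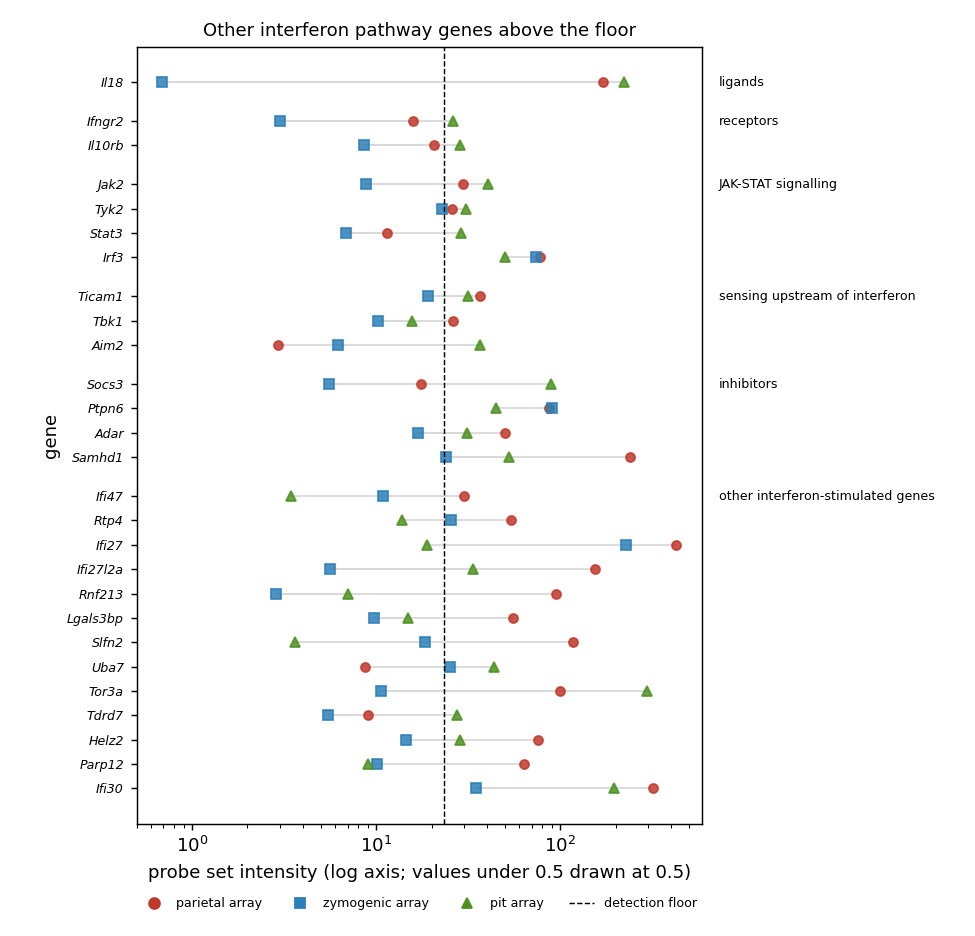
Intensity (x axis, log scale) on the 3 arrays of the 27 other interferon pathway genes that were above the detection floor (dashed) in at least 1 pool, grouped by function. Samhd1, Slfn2 and Rnf213 have their parietal value farthest right, whereas Il18, Socs3 and Tor3a have their pit value farthest right.

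Markers of other cells were set beside these values. The neck cell marker Tff2 had 402, 21.9 and 110 in the parietal, zymogenic and pit pools, 3.65-fold higher in the parietal than in the pit pool. Gkn3, also a neck cell marker, went the other way, with 10.8, 8.56 and 28.7, over the floor in the pit pool alone. Muc6 was not analysed here. Endocrine markers summed to 39.0, 955 and 65.0 (6 genes). Of immune cells, which also express these genes, macrophage and dendritic cell markers summed to 357, 549 and 150 (4, 2 and 2 of 10 above the floor). Among them, Csf1r had 111, 374 and 22.4 and Cd74 had 166, 119 and 63.1 in the parietal, zymogenic and pit pools. Adgre1, with 33.6, 5.83 and 34.1 in these pools, was close to equal between the parietal and pit pools. Lyz2 was just above the floor in the parietal pool alone. Pan-leukocyte markers summed to 89.3, 93.3 and 49.3 (1, 2 and 1 of 5), with Laptm5 at 66.9, 51.9 and 27.1, which is 2.47-fold higher in the parietal than in the pit pool, and Ptprc at 3.04, 23.7 and 2.81. Lymphocyte markers summed to 33.5, 79.5 and 39.2 (0, 1 and 0 of 7) and neutrophil markers to 20.3, 19.6 and 19.0 (0 of 3). Neither Siglech, a marker of plasmacytoid dendritic cells, which are strong interferon producers, nor Itgax was above the floor on any array. Fibroblast markers summed to 283, 132 and 77.3 (3, 2 and 1 of 6), with Col1a2 at 125, 61.7 and 25.6 and Col3a1 at 103, 39.4 and 19.8. These 2 of the 6 were at least 2-fold above both others in the parietal pool, against 1.7% of all genes. Smooth muscle markers summed to 116, 195 and 131 (1, 2 and 1 of 4). Endothelial markers summed to 22.8, 28.9 and 25.6 (0 of 4). No immune or fibroblast marker was listed at 0, and the part of other cell types in the values of the interferon-stimulated genes was not tested.

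Further probe sets existed for 14 of the 37 genes, 20 in all, and 5 of them, of Trim25, Rsad2 and Ifi35, were above the floor in at least 1 pool. Of the 3 that belong to genes at least 2-fold higher in the parietal pool, all 3 were highest there and 2, both of Ifi35, were also at least 2-fold above both others. Such probe sets measure the same RNA again and do not replicate the lineage. For the other genes that were 2-fold higher, the value rests on 1 probe set above the floor.

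Promoter letters, which were not used in choosing the genes, were set against the array values. Of the genes in the promoter table, the response element core was held by 7 of the 11 that were at least 2-fold above both other pools in the parietal pool and by 10 of the 17 measured ones that were not. Irf7, Ifi35, Oasl2 and Samd9l were the 4 of the 11 whose windows did not hold these letters, which says nothing about the factors that act on them. Gamma activated sites, TTCNNNGAA, were in the windows of 8 of 30 genes (26.7%), among them Irf1, Igtp and Oas1a, and of 9.55% of all genes. In Bst2 and Ifitm3 they overlap the response element core.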

How the data were processed

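The authors deposited linear intensities of 45101 probe sets on each array. For probe summary, background correction and scaling, the sources used here give no method. The RNA was amplified before labelling, per the design text. No further scaling was applied. By the platform's gene annotation 34958 probe sets name 1 gene, and 34754 of these were matched by gene ID to the RefSeq table of GRCm38.p6 for symbols. The 932 that name several genes were left out. The floor is the 95th percentile over the receptor probe sets on the array where that is highest. With 1 array per lineage no test was made, and the number of arrays limits the precision. A call means at least 2-fold apart after flooring, and all genes serve as background.

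The genes and lists were chosen with earlier results of these data known. All measured genes of the set are accounted for, and those above the floor on at least 1 array are given on every array. Of the other pathway genes, receptors, JAK-STAT genes and those 2-fold above or below both other arrays are named, with some examples added after their values were seen. Promoters are shown for the 6 genes with the largest ratio that hold the element. Alternatives were scalings, floors, a pseudocount, probe set choices and a 4-fold threshold. Software was Python 3.11.15, matplotlib 3.10.9, numpy 2.4.6 and pandas 2.3.3.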

Additional observations from a re-analysis of the deposited data

How the results depend on the processing

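The 15 genes at least 2-fold above both other pools in the parietal pool numbered 12 to 18 under 7 alternatives and 10 at 4-fold. The 7 were quantile normalization, both scalings to 1 median, the mean over probe sets and the floor at the 90th percentile. Added to these were the floor as a pseudocount and transcript-specific probe sets, which 29 of the genes had. Of all genes 0.572% to 2.72% were 2-fold above both under the 7, and 0.264% were 4-fold above both. The count of 15 became 13 without the 4 genes on probe sets named as shared between transcripts (Trim25, Ifi27l2b, Ifi35 and Gbp2), an alternative chosen after seeing the data. After scaling to BioB and BioC, spiked hybridisation controls that averaged 303 in the parietal pool, 711 in the zymogenic pool and 712 in the pit pool, 23 genes were 2-fold above both and 23 above the pit pool, among them Irf1, Trim25, Oasl1 and Ddx58. The median log2 ratio of parietal minus pit was then 1.23, but 10.9% of all genes were 2-fold above both, and genes above the floor in every pool had a median of 1.46, against 0.29 before. A floor at the 99th percentile (868) left 81 genes above it and none of these 37, so every count was 0. At the 90th percentile (10.9) the median was 1.07, and 1 gene was 2-fold higher and 6 were lower in the zymogenic than in the pit pool. The median was 0.68 with the floor as a pseudocount and 0.21 with each array scaled to 1 median. It was 0.00 after quantile normalization, after scaling the genes above the floor in every pool to 1 median and with the mean over probe sets. With transcript-specific probe sets it was 0.0041, and 1 gene was 2-fold lower in the zymogenic than in the pit pool. The shares of all genes for these counts between the zymogenic and pit pools, and for the 23 above the pit pool, were not computed. After quantile normalization 1 further probe set, not 2, was also 2-fold higher. Ifit3 and Rsad2 were no longer called at 2-fold after quantile normalization, with the pseudocount and after scaling the genes above the floor in every pool to 1 median. Under this last scaling Usp18 was not called either (log2 ratio to the pit pool of 0.96). With the mean over probe sets Rsad2 was not called (0.32), and Parp14 had 1.13 against 2.07. Other pathway genes 2-fold above both numbered 6 after quantile normalization and 7 with the mean over probe sets, against 0.687% and 1.16% of all genes. The shorter core, GAAANNGAA, was in 70.0% of the promoters of these genes and 9.76% of all, and the gamma activated site, added later, in 26.7%. Of 201 log2 ratios of single genes under the alternatives, 118 moved by less than the SD between probe sets and 83 by more. A reversal was counted only for genes at least 2-fold apart before, and 0 were found. Nearer to equality, Irf1, Trim25 and Oasl1 changed sign after scaling to BioB and BioC (-0.22 to 1.01, -0.16 to 1.07 and -0.0015 to 1.23). The floor at the 99th percentile set every such ratio to 0. Scalings, floors and probe set choices change the values tested by construction, and no other cause was tested. No paired analysis was possible because each lineage has 1 array.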
